A study of Homo sapiens with 6 samples.

Results

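The genes described here are those of the lysosome: its acid hydrolases, the proteins of its membrane, the pump that acidifies it and the machinery that carries enzymes to it. They were the rows of the deposited count table whose KEGG pathway field held the lysosome pathway (hsa04142), without NPC1, NPC2 and SLC11A2. The rule used no measured value and gave 121 of the 16279 genes in the table. Of these, 113 passed the filter on low counts and were tested, among 13311 tested genes in all. The 8 that did not pass (AP3S2, ATP6V0A4, ATP6V0D2, CTSE, CTSW, NAPSA, PSAPL1 and SLC11A1) had at most 27 counts in any library.

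RNA-seq was run on 12Z cells, an immortalised human line that the labels call endometrial epithelial and the study calls endometriotic. The Control group held 3 untreated cultures, and the rhChem157S group held 3 cultures given recombinant human chemerin (the labels' rhChemerin) at 10 ng/mL for 48 h. Chemerin is an adipokine, a protein that fat tissue secretes. The question was how the treatment alters the transcriptome of these cells. All 6 libraries came from 1 line grown in serum-containing medium and were taken at 1 dose and 1 time, and a vehicle for the Control cultures is not given in the sources used here. The labels number the replicates as biological, and the p-values measure the spread between these cultures only.

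Library totals ran from 35430881 to 38341643 counts, and the lysosomal genes held 1.37% to 1.56% of them. The epithelial keratins were abundant, with mean levels over the 6 libraries of 868 FPKM for KRT8 and 613 FPKM for KRT18, but the epithelial adhesion genes EPCAM (0.397 FPKM) and CDH1 (0.219 FPKM) were near 0. The collagen genes COL1A1 (1003 FPKM) and COL3A1 (564 FPKM), which mark stromal cells, were in the same range as the keratins. The 8 stromal markers together took 0.945% to 1.22% of the Control counts and 0.657% to 1.28% of the rhChem157S counts, with the lowest value in rhChem157S replicate 3. Of 6 macrophage and leukocyte markers, CD14 reached 2787 counts and each of the others stayed at or under 23 counts. CD14, a surface receptor of monocytes that other cells also express, had 75.9, 59.6 and 53.9 normalised CPM (CPM on TMM-scaled library sizes) in Control and 32.4, 23.9 and 11.3 with rhChem157S, so the treated libraries were all lower. Its log2 fold change was -1.49 (SE 0.35, adjusted p 0.000422 by DESeq2 and 0.1003 by edgeR). The leukocyte list together took 0.00574% to 0.00800% of the Control counts and 0.00113% to 0.00333% of the rhChem157S counts. Nearly all of these counts were CD14, so the list total repeats its fall and shows none for the other markers. Of the 7 epithelial markers DESeq2 called 1 lower (MUC1, -0.57, adjusted p 0.0395, and 0.135 by edgeR) and 0 higher. The MUC1 groups overlapped in normalised CPM, with treated replicate 1 at 40.1 and Control replicate 3 at 39.7. Among the 8 stromal markers DESeq2 called 1 higher (PDGFRA, 0.79, adjusted p 0.0202) and 0 lower. PDGFRA was scarce, at 1.99 FPKM. Of the 8 stromal markers, 5 were above 0 and 3 below, with a median of 0.01. The 3 below were PDGFRB (-0.60), COL1A2 (-0.47) and COL3A1 (-0.16), all more abundant than PDGFRA and with overlapping groups. Over all genes DESeq2 called 3.90% higher and 5.47% lower. EPCAM (-1.46) and CDH1 (-1.14) had treated libraries below every Control library, with adjusted p of 0.113 and 0.123 by DESeq2. The more abundant KRT8 (0.29) and KRT19 (0.27) had treated libraries above every Control library, with adjusted p of 0.109 and 0.177 by DESeq2. On library totals without TMM scaling, the groups of KRT8 and KRT19 overlapped. The epithelial list held 0.277% to 0.324% of the Control counts and 0.305% to 0.342% of the rhChem157S counts. In bulk RNA, fewer cells of a type and less RNA per cell cannot be told apart, and the part of these markers in the lysosomal results was not tested.

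Lysosomes break down proteins, glycans, lipids and nucleic acids delivered by endocytosis and autophagy. Their soluble enzymes are tagged with mannose 6-phosphate in the Golgi apparatus, bound by receptors there and carried in clathrin-coated vesicles, while a V-type proton pump keeps the lumen acid. Many of the genes are controlled together by TFEB, TFE3 and MITF, basic helix-loop-helix factors that bind a sequence named the CLEAR element, which holds an E-box. Lysosome content and the β-galactosidase activity of the lysosome are widely used as marks of senescent cells.

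Upstream sequence of the genes is shown first, since the shared regulatory letters are what the pathway is known for. RefSeq promoter windows (GRCh38.p14, 250 bases before to 50 bases after the start of each gene) matched 91 of the 121 genes. The E-box CACGTG was present in 20 of these 91 windows (22.0%) and in 7.43% of all 27305 promoter windows. The longer core TCACGTGA, which contains the E-box, was present in 11 of 91 (12.1%) and in 1.04% of all windows. Both motifs read the same on either strand, so a search of 1 strand covered both. The stretches below are written 5′ to 3′ on the strand of the gene, and capitals mark each match. They were chosen to show windows with several matches (LAMP1, IGF2R and MCOLN1), the window of the gene with the highest log2 fold change (AP1S2), and 1 match each from a glycosidase, a protease, a pump subunit and a membrane protein, kept to 30 bases because these stretches overlap annotated exons.
LAMP1, chr13:113297020-113297238, plus strand: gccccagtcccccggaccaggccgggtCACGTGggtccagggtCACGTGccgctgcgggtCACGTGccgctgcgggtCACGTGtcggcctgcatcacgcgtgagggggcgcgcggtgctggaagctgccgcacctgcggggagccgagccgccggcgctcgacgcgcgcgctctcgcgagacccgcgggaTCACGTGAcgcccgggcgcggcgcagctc
IGF2R, chr6:159968922-159969081, plus strand: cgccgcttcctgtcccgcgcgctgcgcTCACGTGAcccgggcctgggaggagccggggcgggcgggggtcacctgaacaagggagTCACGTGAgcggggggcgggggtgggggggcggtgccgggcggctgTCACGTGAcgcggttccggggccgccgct
MCOLN1, chr19:7522555-7522623, plus strand: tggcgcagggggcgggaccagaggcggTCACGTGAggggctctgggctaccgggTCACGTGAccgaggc
AP1S2, chrX:15855013-15855063, minus strand: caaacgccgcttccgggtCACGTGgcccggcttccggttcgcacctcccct
GAA, chr17:80101493-80101522, plus strand: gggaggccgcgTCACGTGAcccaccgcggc
CTSA, chr20:45891298-45891327, plus strand: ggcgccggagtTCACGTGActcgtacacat
ATP6V0D1, chr16:67481199-67481228, minus strand: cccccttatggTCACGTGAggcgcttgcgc
CD63, chr12:55729172-55729201, minus strand: ccgggtaggggcCACGTGgccctggccggg

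A match is a description of the letters and not a bound site. LAMP1 held 1 core 29 bases before its start and 4 further E-boxes, IGF2R held 3 cores within 133 bases of its start, and MCOLN1 held 2. By role, the core was present in 3 of 6 windows of the mannose phosphate tag and sorting receptor genes, in 4 of 16 of the membrane proteins and in 0 of 21 of the adaptors and clathrin chains.

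Across the pathway the changes were small and went both ways. Cathepsin B, the membrane proteins CD63 and LAMP1 and 3 coat genes were higher with rhChem157S by DESeq2, whereas 4 glycosidases, the sulfatase ARSA, the coat genes AP1G2 and AP1S3, the lipid transporter ABCA2, the sialic acid exporter SLC17A5 and the heparan sulfate acetyltransferase HGSNAT were lower. Log2 fold changes (rhChem157S over Control) are from edgeR, and levels per library are normalised CPM, unless said otherwise. Each standard error (SE) is the absolute log2 fold change divided by the square root of the F statistic of edgeR's test. The median log2 fold change of the 113 tested genes was -0.03, beside 0.01 over all tested genes, and 49 were above 0 and 64 below. In 63 of the 113 the log2 fold change lay within 0.2 of 0.

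By edgeR's quasi-likelihood test, adjusted after Benjamini and Hochberg across the table, 0 of 113 lysosomal genes passed 0.05, where 0.0301% of all genes did, and the smallest adjusted p was 0.0752 (HGSNAT). At an unadjusted p under 0.05, edgeR gave 12 lysosomal genes higher (10.6%) against 11.4% of all genes, and 22 lower (19.5%) against 11.4% of all genes. DESeq2, run on the same counts, gave adjusted p under 0.05 for 6 of 116 lysosomal genes higher (5.17%), where 3.90% of all genes were called higher, and for 10 lower (8.62%), where 5.47% were called lower. The groups did not overlap in normalised CPM for 19 lysosomal genes that were higher (16.8%, 16.5% of all genes) and for 23 that were lower (20.4%, 16.0% of all genes). This split depended on the TMM factors, which were 1.04 to 1.05 in Control and 0.90 to 1.00 with rhChem157S. On library totals without them, 9 of the 113 were higher and 39 lower without overlap. Over all 13311 tested genes, 980 were higher and 3346 lower in that way. The plot of change by role shows where the calls fell.

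The 16 DESeq2 calls depended on single libraries. Leaving out Control replicate 1, 2 or 3 gave 6, 1 and 2 calls, and leaving out rhChem157S replicate 1, 2 or 3 gave 26, 5 and 21. HGSNAT was the 1 gene of the 16 that stayed called in each of these fits. Over the 13 alternative fits, the highest adjusted p of each of the 16 genes lay between 0.359 (HGSNAT) and 0.464 (LAMP1). With edgeR, the adjusted test passed for 10 lysosomal genes without rhChem157S replicate 1 and for 4 without rhChem157S replicate 3. The shares of all genes called in these reduced fits are not given here. Without those shares, these counts do not show whether the lysosomal genes shifted apart from the whole table. Scaling by library size alone shifted the median of all genes to -0.12 and that of the lysosomal genes to -0.17, changed the sign of 21 of the 113 genes, and left 15 of the 16 called genes without overlap between groups, LAMP1 being the exception.

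**Figure D1:**
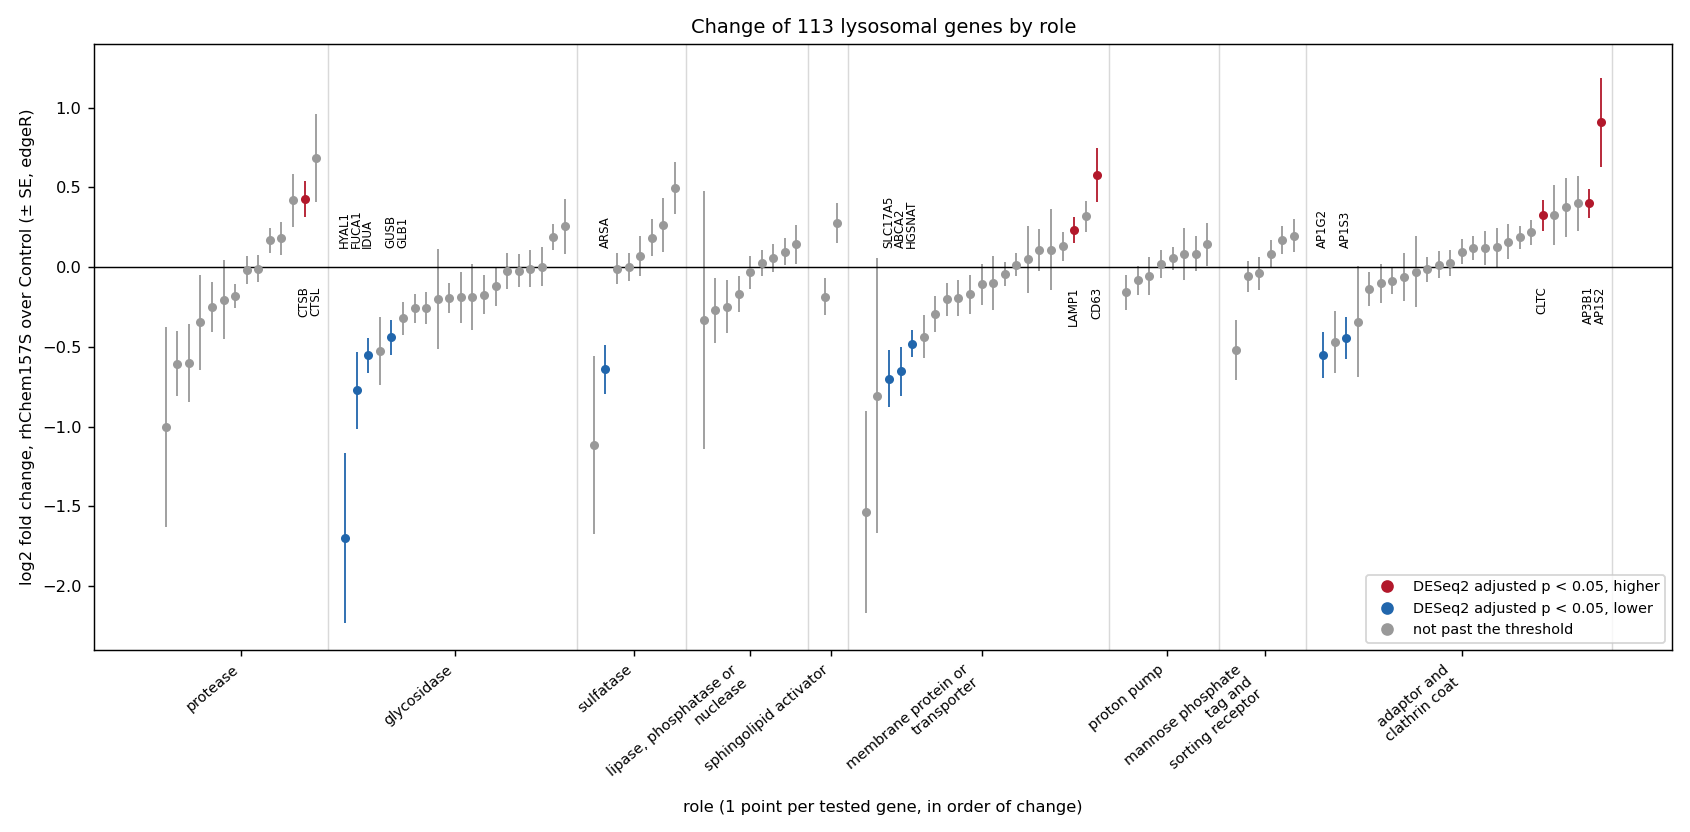
Each point is the log2 fold change (rhChem157S over Control, edgeR) of 1 of 113 tested lysosomal genes, with its standard error, grouped by role along the horizontal axis. Red and blue points are the 6 higher and 10 lower genes by DESeq2 and grey points are the rest. The proton pump points lie between -0.16 and 0.14, while 17 of 20 glycosidase points lie below 0.

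Among the proteases, the cathepsins that are cysteine proteases split by gene. CTSB, cathepsin B, had 997, 929 and 1012 normalised CPM in Control cultures, against 1180, 1458 and 1312 in treated ones. All 3 treated libraries were above all 3 Control libraries. CTSB rose by a log2 fold change of 0.43 (SE 0.11), with an adjusted p of 0.00889 by DESeq2 and 0.110 by edgeR. CTSL, cathepsin L, had 122, 142 and 166 normalised CPM in Control and 137, 249 and 307 with rhChem157S. Treated replicate 1 lay inside the Control range while the other two lay above it. The CTSL log2 fold change was 0.69 (SE 0.28, adjusted p 0.202 by edgeR and 0.0870 by DESeq2), and it was 0.42 without rhChem157S replicate 3 and 0.94 without rhChem157S replicate 1, where the edgeR adjusted p was 0.0316.

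CTSF, cathepsin F (chromosome 11, 66563463 to 66568841), moved the other way, with 69.2, 80.8 and 65.3 normalised CPM in Control cultures, against 56.6, 52.1 and 32.8 in treated ones. The groups did not overlap, and the lowest library was rhChem157S replicate 3. Its log2 fold change of -0.61 (SE 0.20) did not pass either adjusted test (0.155 by edgeR, 0.0534 by DESeq2). CTSD, the main aspartic protease of the lysosome and the most abundant protease of the list at 282 FPKM, had 549 to 595 normalised CPM in Control and 565 to 590 with rhChem157S. The treated CTSD values fell inside the Control range, and the log2 fold change was -0.01 (SE 0.08). Of the 14 tested proteases, 5 were above 0 and 9 below with a median of -0.10. At an unadjusted edgeR p under 0.05, 3 were higher and 3 lower, beside 11.4% of all genes in each direction. DESeq2 called CTSB alone, beside 3.90% of all genes called higher and 5.47% called lower. CTSE, CTSW and NAPSA, proteases of stomach, lymphocytes and lung or kidney, had at most 8 counts in any library and were not tested.

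The glycosidases, which cut the sugar bonds of glycans, were the role in which most genes were lower. This role also held AGA, which cuts a glycan from asparagine. The roles were chosen with earlier results known, and FUCA2, HYAL2 and HYAL3 joined this one once the table had been read. Log2 fold changes in the role were below 0 for 17 of 20 genes, with a median of -0.19. DESeq2 called 4 lower and 0 higher, where it called 5.47% of all genes lower. At an unadjusted edgeR p under 0.05, 8 were lower and 0 higher, beside 11.4% of all genes in each direction. The median level of the 20 genes relative to the Control mean was -0.07, 0.04 and 0.03 on the log2 scale in Control and -0.19, -0.23 and -0.28 after treatment. Each treated library was below each Control library. With library size scaling alone, 2 of the 20 were above 0 and the median was -0.32.

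FUCA1, α-L-fucosidase (chromosome 1, 23845077 to 23868294), had 20.1, 26.7 and 29.95 normalised CPM in Control cultures, against 19.6, 14.6 and 10.7 in treated ones. The groups were separated by a narrow gap, with treated replicate 1 just under Control replicate 1. FUCA1 fell by 0.77 on the log2 scale (SE 0.24, adjusted p 0.0336 by DESeq2 and 0.141 by edgeR). IDUA, α-L-iduronidase, which removes iduronic acid from dermatan and heparan sulfate, had 19.7, 22.0 and 21.2 normalised CPM in Control and 13.9, 13.8 and 15.2 with rhChem157S. These groups were tight and far apart. IDUA fell by 0.55 on the log2 scale (SE 0.11, adjusted p 0.00133 by DESeq2 and 0.0769 by edgeR).

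GUSB, β-glucuronidase (chromosome 7, 65960684 to 65982314), had 121, 134 and 131 normalised CPM in Control cultures, against 97.8, 105 and 81.4 in treated ones. All treated values were lower. GUSB fell by 0.44 on the log2 scale (SE 0.11, adjusted p 0.0192 by DESeq2 and 0.106 by edgeR). HYAL1, a hyaluronidase (chromosome 3, 50299889 to 50312381), was scarce, with 2.20, 2.53 and 1.72 normalised CPM in Control and 0.861, 0.907 and 0.208 with rhChem157S, from a mean of 52.7 counts. The value of treated replicate 3 was the lowest by far. HYAL1 fell by 1.70 on the log2 scale (SE 0.53, adjusted p 0.0266 by DESeq2 and 0.141 by edgeR).

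GLB1 encodes the lysosomal β-galactosidase whose activity is stained as senescence-associated β-galactosidase. Its transcript had 104, 107 and 124.9 normalised CPM in Control cultures, against 94.5, 91.5 and 82.9 in treated ones. The groups did not overlap, with the treated libraries lower. The log2 fold change was -0.32 (SE 0.10), which did not pass the adjusted test of edgeR (0.140) or DESeq2 (0.0803). The hexosaminidase subunit HEXA, which acts on gangliosides, had a log2 fold change of -0.02 (SE 0.11), with overlapping groups. With TMM scaling, FUCA2 (0.19) and AGA (0.26) were the 2 genes of the glycosidase role whose treated libraries were all above the Control libraries. On library totals without TMM scaling, 0 genes of the role were, and FUCA2 was at 0.06 and AGA at 0.13. The edgeR adjusted p of FUCA2 and AGA with TMM scaling were 0.231 and 0.399.

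**Figure D2:**
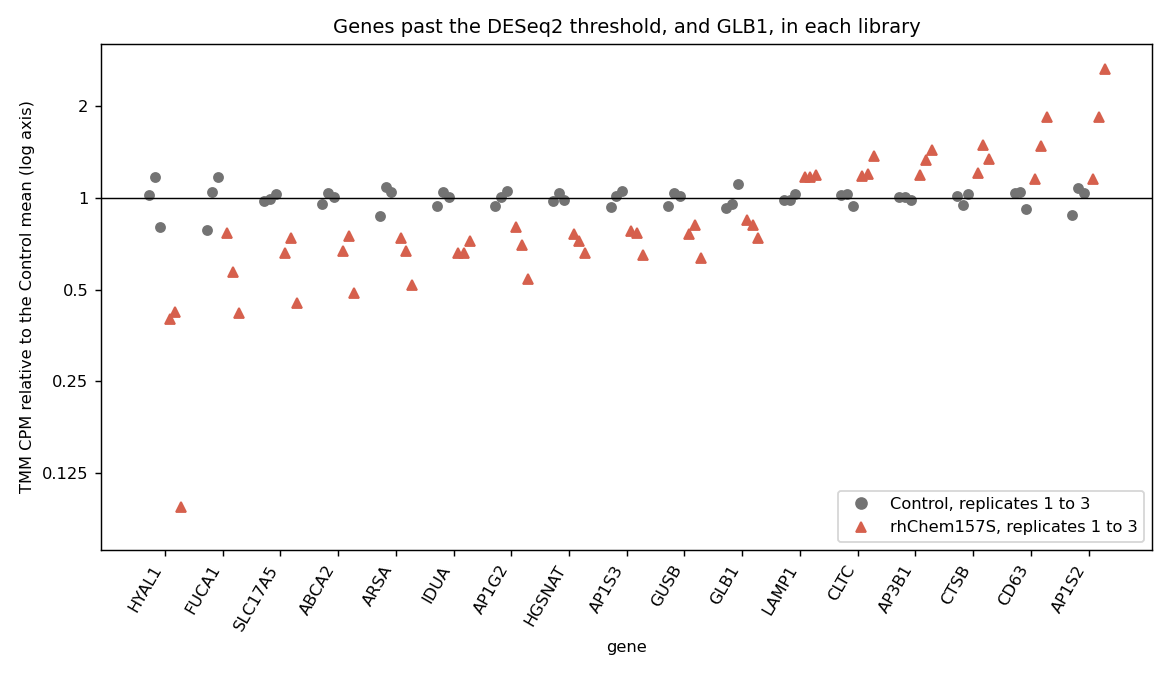
Normalised CPM of each gene in each library, divided by the mean of the 3 Control libraries and drawn on a log axis, for the 16 lysosomal genes called by DESeq2 and for GLB1. Circles are Control and triangles rhChem157S libraries, with replicates 1 to 3 from left to right within a group. No triangle overlaps the circles of its gene, and rhChem157S replicate 3 is the farthest from the Control mean for every gene drawn except CTSB and IDUA.

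Sulfatases remove sulfate from glycans and lipids. The role also held SUMF1 (0.26), which activates sulfatases and is not a sulfatase itself. Of the 8 genes of the role, 5 were above 0 and 3 below. ARSA, arylsulfatase A, which acts on the myelin lipid sulfatide (chromosome 22, 50622754 to 50628173), had 34.9, 43.2 and 41.6 normalised CPM in Control and 29.4, 26.6 and 20.7 with rhChem157S. The treated libraries were all lower. ARSA fell by 0.64 on the log2 scale (SE 0.15, adjusted p 0.00815 by DESeq2 and 0.103 by edgeR). ARSB, arylsulfatase B, which acts on dermatan and chondroitin sulfate, had 21.8, 26.1 and 27.7 normalised CPM in Control cultures, against 29.7, 33.9 and 43.3 in treated ones. Its treated libraries were all higher, at a log2 fold change of 0.50 (SE 0.16) that did not pass the adjusted test (0.148 by edgeR, 0.0687 by DESeq2). SGSH, the heparan sulfamidase, was at 0.00 (SE 0.09).

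Glycosidases, sulfatases and HGSNAT act in turn on glycosaminoglycans, the sugar chains of proteoglycans. KEGG places 15 of the tested genes in that pathway (hsa00531), a subset chosen after its values were seen. Their median log2 fold change was -0.20, and 7 were lower and 1 higher at an unadjusted edgeR p under 0.05, beside 11.4% of all genes in each direction. DESeq2 called 4 lower (HYAL1, IDUA, GUSB and HGSNAT) and 0 higher, beside 5.47% of all genes called lower. NAGLU, GLB1 and HYAL2 made up the rest of the 7, and ARSB was the gene that was higher. Median levels relative to the Control mean were -0.08, 0.05 and 0.03 in Control and -0.16, -0.22 and -0.17 after treatment, without overlap.

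Of the 9 lipases, phosphatases and nucleases, 0 had an unadjusted edgeR p under 0.05, beside 11.4% of all genes in each direction. DESeq2 called 0, beside 3.90% of all genes called higher and 5.47% called lower. In normalised CPM, 0 of the 9 had separated groups, beside 16.5% of all genes higher and 16.0% lower. The median of the 9 was -0.03. PPT1, a thioesterase that removes palmitate from proteins and the most abundant of them at 75.7 FPKM, had 252 to 271 normalised CPM in Control and 258 to 291 with rhChem157S. SMPD1, the acid sphingomyelinase, was at 0.14 (SE 0.12), and DNASE2, the acid DNase, was at -0.27 (SE 0.20). Without rhChem157S replicate 3 DNASE2 was at -0.06, and without rhChem157S replicate 1 at -0.48. PSAP, the precursor of the saposins that present lipids to these enzymes, was the most abundant gene of the whole list at 567 FPKM. It had 1690, 1707 and 1564 normalised CPM in Control cultures, against 1603, 1485 and 1277 in treated ones, and treated replicate 1 lay inside the Control range. The PSAP log2 fold change was -0.18 (SE 0.12, edgeR adjusted p 0.373).

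Among membrane proteins, LAMP1 and CD63, both abundant glycoproteins, were higher and 3 enzymes or transporters were lower by DESeq2. LAMP1, which lines the lysosomal membrane (chromosome 13, 113297241 to 113323672), had 645, 648 and 678 normalised CPM in Control and 767, 770 and 781 with rhChem157S. Both groups were tight and did not overlap. LAMP1 rose by a log2 fold change of 0.23 (SE 0.08, adjusted p 0.0439 by DESeq2 and 0.164 by edgeR), while with library size scaling its groups overlapped. CD63, a tetraspanin of late endosomes and exosomes (chromosome 12, 55725323 to 55729707), had 292, 294 and 259 normalised CPM in Control cultures, against 324, 416 and 520 in treated ones. The treated libraries spread widely above the Control ones. CD63 rose by a log2 fold change of 0.58 (SE 0.17, adjusted p 0.0260 by DESeq2 and 0.129 by edgeR). LAMP2, the receptor of chaperone-mediated autophagy, had overlapping groups and a log2 fold change of 0.13 (SE 0.09).

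HGSNAT, which acetylates heparan sulfate across the lysosomal membrane, had 104, 111 and 105 normalised CPM in Control and 81.5, 77.4 and 70.6 with rhChem157S. The gap between the groups was wider than the range within either. HGSNAT fell by 0.48 on the log2 scale (SE 0.09, adjusted p 0.000406 by DESeq2 and 0.0752 by edgeR). Over the 6 DESeq2 fits that left out 1 library, its adjusted p stayed at or below 0.0460.

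SLC17A5, sialin, which exports sialic acid freed from glycans (chromosome 6, 73593379 to 73654155), had 33.7, 34.0 and 35.5 normalised CPM in Control cultures, against 22.7, 25.3 and 15.5 in treated ones. The Control libraries were close together and all treated libraries were below them. SLC17A5 fell by 0.70 on the log2 scale (SE 0.18, adjusted p 0.0104 by DESeq2 and 0.108 by edgeR). ABCA2, a lipid transporter of the endolysosomal membrane (chromosome 9, 137007227 to 137028922), had 98.0, 106 and 103 normalised CPM in Control and 68.4, 77.1 and 49.98 with rhChem157S. Here too the groups were apart. ABCA2 fell by 0.65 on the log2 scale (SE 0.15, adjusted p 0.00625 by DESeq2 and 0.102 by edgeR). Over all 21 tested membrane proteins, 8 were above 0 and 13 below, and the median was -0.11. DESeq2 called 2 of them higher and 3 lower, beside 3.90% of all genes called higher and 5.47% called lower. LAMP3 had the most negative value, -1.54 (SE 0.63), at 0.178 FPKM and with overlapping groups.

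The pump list, mostly the membrane-embedded V0 sector, showed the narrowest range. All 8 tested genes had log2 fold changes between -0.16 (TCIRG1) and 0.14 (ATP6V0C), and the median was 0.04 (-0.09 with library size scaling alone). At an unadjusted edgeR p under 0.05 there were 0, beside 11.4% of all genes in each direction. DESeq2 called 0 at an adjusted p under 0.05, beside 3.90% of all genes called higher and 5.47% called lower. ATP6V0C, the proton-carrying ring subunit and the most abundant at 235 FPKM, had 260, 243 and 268 normalised CPM in Control cultures, against 245, 262 and 343 in treated ones. Treated replicate 3 was the highest library, and the others overlapped. ATP6AP1, an accessory subunit, was the 1 pump gene without overlap, at a log2 fold change of 0.06 (SE 0.07). On library totals without TMM scaling, 0 pump genes had all treated libraries higher. The cytosolic V1 sector hydrolyses ATP and is mostly outside the KEGG lysosome field. It had a median of 0.13 over 9 tested genes, with 7 above 0, while with library size scaling alone 4 of the 9 were above 0. DESeq2 called 1 gene of the sector higher, beside 3.90% of all genes. That gene, ATP6V1D, had 33.7, 35.02 and 33.3 normalised CPM in Control and 42.9, 40.2 and 49.1 with rhChem157S. ATP6V1D rose by a log2 fold change of 0.37 (SE 0.10, adjusted p 0.0404 by DESeq2 and 0.120 by edgeR).

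Both mannose 6-phosphate receptors were expressed, at 44.7 FPKM for IGF2R and 65.1 FPKM for M6PR. IGF2R had 651, 695 and 562 normalised CPM in Control cultures, against 612, 626 and 619 in treated ones, so the treated values lay inside the Control range and the log2 fold change was -0.04 (SE 0.10). M6PR had 158, 165 and 149 normalised CPM in Control and 165, 172 and 204 with rhChem157S, so the lowest treated value was level with the highest Control value. Its log2 fold change was 0.20 (SE 0.10, edgeR adjusted p 0.292), and it was 0.10 without rhChem157S replicate 3 and 0.06 with library size scaling. SORT1, sortilin, a receptor that carries prosaposin and sphingomyelinase without the sugar tag, had 102, 99.9 and 83.2 normalised CPM in Control cultures, against 83.4, 66.4 and 49.3 in treated ones. Control replicate 3 and treated replicate 1 were almost equal. The SORT1 log2 fold change was -0.52 (SE 0.19, adjusted p 0.172 by edgeR and 0.0848 by DESeq2). The role of 6 genes held SORT1 beside the genes of the tag and its receptors. Of the 6, 3 were above 0 and 3 below. DESeq2 called 0, beside 3.90% of all genes called higher and 5.47% called lower. At an unadjusted edgeR p under 0.05, 1 was lower (SORT1) and 0 higher, beside 11.4% of all genes in each direction.

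**Figure D3:**
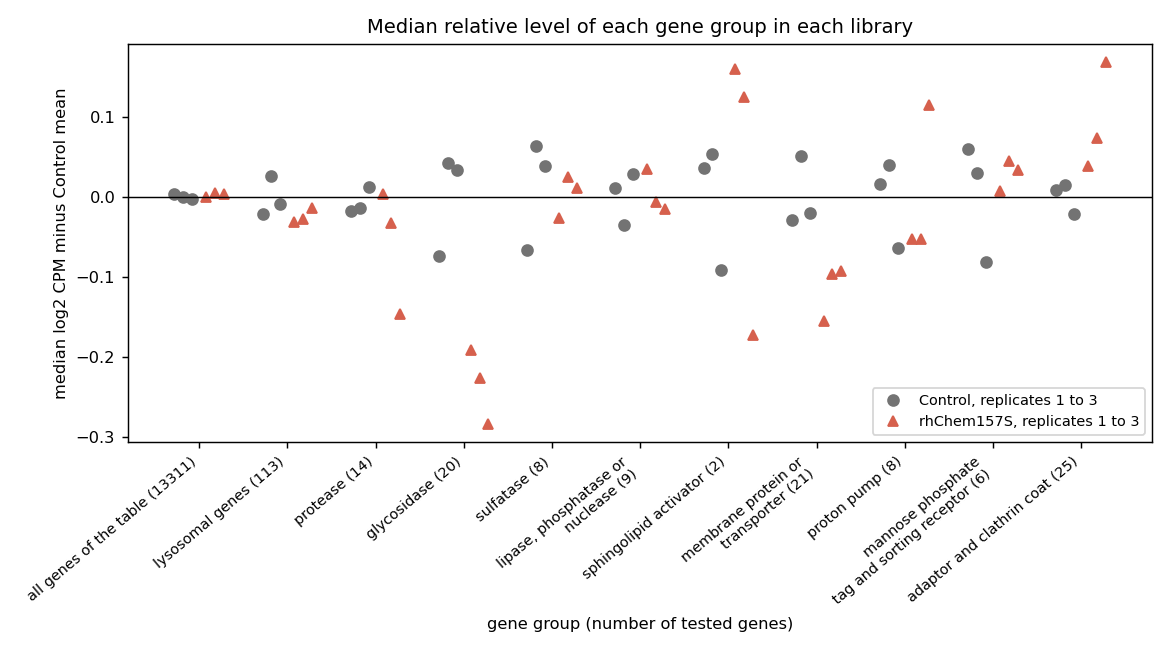
Median over the genes of each group of the log2 normalised CPM minus the Control mean, in each of the 6 libraries, with the number of tested genes in brackets. Circles are Control and triangles rhChem157S libraries. The glycosidase triangles (-0.19 to -0.28) lie below every circle of that group, the adaptor and clathrin triangles (0.04 to 0.17) lie above with this TMM scaling, and the medians over all tested genes lie within 0.01 of 0.

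The adaptors and clathrin chains, which coat the vesicles leaving the Golgi apparatus and endosomes, had 15 of 25 genes above 0 and a median of 0.10, which became 9 of 25 and -0.03 with library size scaling alone. The AP-1 complex split between its paralogous subunits. AP1S2, a small sigma subunit of AP-1 (chromosome X, 15825806 to 15854931), had 19.0, 23.4 and 22.5 normalised CPM in Control and 24.9, 39.8 and 57.3 with rhChem157S. Treated replicate 1 was just above the Control range and replicate 3 far above it. AP1S2 rose by a log2 fold change of 0.91 (SE 0.28, adjusted p 0.0209 by DESeq2 and 0.135 by edgeR), and the value was 0.58 without rhChem157S replicate 3.

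AP1S3, another sigma subunit (chromosome 2, 223751686 to 223838027), had 15.2, 16.5 and 17.2 normalised CPM in Control cultures, against 12.7, 12.6 and 10.6 in treated ones. AP1G2, the gamma-2 subunit, had 88.5, 94.8 and 98.9 normalised CPM in Control and 75.4, 65.9 and 51.2 with rhChem157S. For both genes the treated libraries were all lower. AP1S3 fell by 0.45 on the log2 scale (SE 0.13, adjusted p 0.0409 by DESeq2 and 0.131 by edgeR). AP1G2 fell by 0.55 on the log2 scale (SE 0.14, adjusted p 0.0169 by DESeq2 and 0.110 by edgeR). The gamma-1 paralogue AP1G1 was at 0.19 (SE 0.07), with all treated libraries higher and an edgeR adjusted p of 0.188. On library totals without TMM scaling, its groups overlapped.

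AP3B1, the β3A subunit of AP-3, which sorts membrane proteins to lysosome-related organelles (chromosome 5, 78000525 to 78294755), had 80.2, 80.5 and 78.3 normalised CPM in Control cultures, against 95.1, 106 and 114 in treated ones. The Control libraries were almost equal and the treated ones were all above them. AP3B1 rose by a log2 fold change of 0.40 (SE 0.09, adjusted p 0.0104 by DESeq2 and 0.0948 by edgeR). CLTC, the clathrin heavy chain (chromosome 17, 59619689 to 59696956), had 505, 509 and 465 normalised CPM in Control and 583, 593 and 678 with rhChem157S. Again the groups did not overlap. CLTC rose by a log2 fold change of 0.33 (SE 0.10, adjusted p 0.0390 by DESeq2 and 0.134 by edgeR). The light chains CLTA and CLTB were at 0.40 (SE 0.17) and 0.37 (SE 0.18), with edgeR adjusted p of 0.220 and 0.265. Without rhChem157S replicate 3 they were at 0.16 and 0.14.

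The factors and signalling complexes that act on lysosomal genes were read from lists that the KEGG rule did not use. TFEB had 15.1, 11.9 and 12.1 normalised CPM in Control cultures, against 9.05, 10.1 and 6.999 in treated ones. Its groups did not overlap, and the log2 fold change of -0.57 (SE 0.19) did not pass the adjusted test (0.149 by edgeR, 0.0579 by DESeq2). TFE3 was at -0.17 and MITF at -0.19. The Ragulator and Rag GTPase genes, which dock mTORC1 on the lysosome, were listed with SLC38A9 (0.05), which is neither. Of these 10 genes, 7 were above 0, with a median of 0.04 (3 of 10 and -0.08 with library size scaling alone). EdgeR called 0 of the 10 past the adjusted test, beside 0.0301% of all genes. At an unadjusted edgeR p under 0.05 there were 0, beside 11.4% of all genes in each direction. DESeq2 called 0, beside 3.90% of all genes called higher and 5.47% called lower. The cystatins CST3 and CSTB, inhibitors of cathepsins, were at 0.01 and 0.22.

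Promoter letters and changes can be set side by side for the genes that have a window. Of the 4 genes called higher by DESeq2 with a window, AP1S2, CD63 and LAMP1 held an E-box and CLTC did not. Of the 8 called lower with a window, 0 did. Among all tested genes with a window, the median log2 fold change was -0.01 for the 19 with an E-box and -0.03 for the 66 without. It was 0.02 for the 11 with the longer core and -0.02 for the 74 without. IGF2R and MCOLN1, which held 3 and 2 cores, were at -0.04 and -0.11.

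The direction of change moved with abundance, both in the lysosomal genes and in all tested genes. Below 1 FPKM (mean over the 6 libraries) the median log2 fold change was -0.90 for 8 lysosomal genes and -0.37 for all genes of that class. From 1 to 10 FPKM it was -0.14 for 31 lysosomal genes and -0.03 for all. From 10 to 50 FPKM it was -0.05 for 46 lysosomal genes and 0.07 for all. At 50 FPKM or more it was 0.12 for 28 lysosomal genes and 0.19 for all. In each class the lysosomal median was below that of all genes. Of the 6 genes called higher, CTSB, CD63, LAMP1 and CLTC were in the class of 50 FPKM or more, as was GUSB among the 10 called lower, and the part of abundance in these results was not tested.

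**Figure D4:**
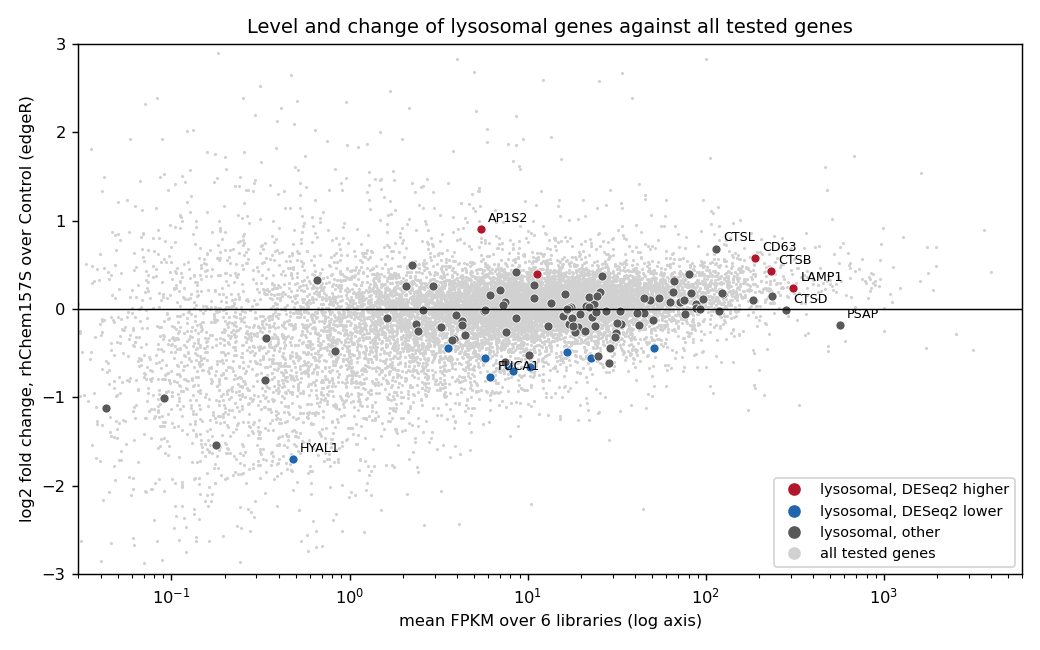
Mean level over the 6 libraries (FPKM, log axis) against log2 fold change (rhChem157S over Control, edgeR) for all tested genes in light grey and the 113 lysosomal genes in dark grey, red (6 called higher by DESeq2) and blue (10 called lower). Genes beyond 3 in either direction or outside the level axis are not drawn. The cloud of all genes tilts from a median of -0.37 below 1 FPKM to 0.19 at 50 FPKM or more.

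Several of the named genes overlap exons of other genes, and the strand setting of the counting is not given in the sources used here. In the GENCODE annotation, 534 exon bases of IDUA face SLC26A1 on the opposite strand, 2700 of the 6897 exon bases of AP1G2 face AL135999.1, and 244 of CLTC face PTRH2. For these genes the reads of both partners cannot be told apart without strand. GLB1 shares 83 exon bases with TMPPE on its own strand.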

How the data were processed

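RNA-seq of 12Z cells gave 6 libraries, 3 Control and 3 rhChem157S, grouped by the labels. Per the labels, the authors' notes name fastp, HISAT2, HTSeq and GRCh38.p13. The deposited counts are raw reads per gene, and the deposited FPKM values are the authors' counts divided by gene length and library total. The annotation release and strand setting are not given in the sources used here. Counts were tested with edgeR 4.0.16 (TMM factors, filterByExpr, quasi-likelihood test, Benjamini-Hochberg adjustment over 13311 genes, threshold 0.05) in R 4.3.3, a script tested on simulated data. Alternatives were DESeq2 1.42.0, library size scaling, no count filter, a replicate block, limma 3.58.1 on log2 FPKM with a pseudocount of 1 or 0.1, and leaving out each library. FPKM was otherwise used for levels between genes. Coordinates and exon overlaps are from GENCODE 29 (GRCh38), and promoter windows from RefSeq (GRCh38.p14). The members, roles and lists were chosen with earlier results of these data known, and FUCA2, HYAL2 and HYAL3 were put in the glycosidase role once the table had been read. Genes named by rule were those called by edgeR or DESeq2 and, in each role, the 2 most abundant and the extremes of change with a mean of at least 20 counts, plus GLB1, HEXA, CTSB, CTSD, CTSL, LAMP1, LAMP2, PSAP, IGF2R, M6PR, TFEB, TFE3 and MITF; a few genes that the rule also names are not reported here. Any other lysosomal gene was named after its values were seen.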

Additional observations from a re-analysis of the deposited data

How the results depend on the processing

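The count of lysosomal genes past the adjusted test, 0 with edgeR, was 16 with DESeq2, 1 with limma on log2(FPKM + 1) (IDUA), and 0 with limma on log2(FPKM + 0.1), library size scaling or no count filter; leaving out 1 library gave 0 to 10. DESeq2 calls ran from 1 to 26 when 1 library was left out. At an unadjusted p under 0.05 the edgeR count of 34 ran from 20 to 37 without 1 library. These counts from reduced fits have no share of all genes beside them. The median log2 fold change of -0.03 was -0.17 with library size scaling, -0.16 with limma on log2(FPKM + 0.1), -0.14 with limma on log2(FPKM + 1) and -0.057 to -0.023 without 1 library. Whether the replicate numbers pair the samples is not stated by the labels and was not settled here. Same-numbered libraries had deviations correlated at 0.307, 0.00741 and 0.310, and differently numbered ones at -0.369 to 0.137. With the replicate number as a block, edgeR gave 32 genes at an unadjusted p under 0.05 and 0 past the adjusted test, and DESeq2 gave 19 calls. Of 528 values of 44 named genes, 469 kept direction and side of the threshold, 30 passed it newly and 29 in 11 genes changed sign. Under library size scaling, limma with 0.1 and limma with 1, ATP6AP1 was at -0.073, -0.074 and -0.073, GNPTG at -0.043, -0.048 and -0.048, PPT1 at -0.029, -0.034 and -0.033 and SGSH at -0.13, -0.13 and -0.12. Under the same limma fits ATP6V0C was at -0.0019 and -0.0019 and LAMP2 at -0.00059 and -0.00026, and SGSH was at -0.00092 with DESeq2. Without 1 library the range was -1.01 to 0.19 for ACP5, -0.020 to 0.23 for ATP6V0C, -0.044 to 0.012 for CTSD, -0.087 to 0.067 for HEXA, -0.12 to 0.030 for IGF2R, -0.049 to 0.050 for SGSH and -0.54 to 0.0033 for MITF. The cause of these shifts was not tested. With 3 libraries a group, an exact permutation test of a single gene cannot go below 0.10.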
